A study of Mus musculus with 7 samples.

Results

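The Notch pathway genes described here are 10 rows of a gene count table of mouse embryonic fibroblasts (MEFs) and mouse embryonic stem cells (mESCs), out of 55484 rows in all. They were chosen by gene symbol and comprise the receptors Notch1, Notch2, Notch3 and Notch4, the ligands Jag1, Jag2 and Dll1, the DNA-binding factor Rbpj, and the target genes Hes1 and Hey1. Cultured from embryos, MEFs are connective tissue cells, whereas mESCs are pluripotent and come from the early embryo. There were 4 MEF and 3 mESC RNA-seq libraries, with no treatment, time, age, sex or culture medium given in the labels. The paper gives a C57/Bl6 background for its MEFs and mESCs, in its account of the chromatin accessibility libraries. The extraction text in the labels names another cell type, blood stem cells of young and aged mice. The paper's captions give these RNA data as 3 biological replicates, where 4 MEF libraries were used here. The labels do not say whether libraries of one cell type came from separate cultures, so that p-values measure the spread between these libraries. The libraries are called O1 to O4 (MEF) and Y1 to Y3 (mESC), after the endings of their column names, whose letters the sources do not explain. In the study, which compared sequencing platforms for chromatin accessibility, these RNA data served to select transcription factors by their expression.

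Notch receptors are cleaved when a neighbouring cell presents a ligand of the Jagged or Delta-like family. The released intracellular part enters the nucleus and joins the DNA-binding protein Rbpj, which represses its targets without Notch and activates them with it. Hes1 and Hey1 encode repressors of the basic helix-loop-helix type and are textbook targets. In the early embryo the pathway is best known for its part in segmentation and in lineage choice, and in fibroblasts and vessel wall cells for signalling between neighbouring cells.

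The main differences lay in 4 of the 10 genes. Jag1 was 6.40-fold and Notch2 4.69-fold lower in mESCs than in MEFs, Hes1 was 1.93-fold lower, and Rbpj was 4.56-fold higher. The remaining 6 genes had between 1 and 101 counts in any library and did not pass the test, while the 4 genes that passed it had between 150 and 4907. All 10 genes passed the filter on low counts. These 4 calls are 40% of the members, where 47.9% of the 16580 genes tested were called (edgeR, quasi-likelihood test, p adjusted by Benjamini-Hochberg over all genes, called under 0.05). By direction, 1 member was higher and 3 were lower in mESCs, where 22.8% of all genes tested were higher and 25.0% lower. The median log2 fold change of the members was 0.13, and that of all genes tested was 0.04. With scaling by library size alone, 60.8% of the calls over all genes were higher in mESCs in place of 47.7%, and the median of all genes moved to 0.32.

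The upstream sequences of the called genes are shown because Rbpj is itself the factor that reads the sequence TGGGAA, so that they let a reader see which of these genes carry these letters before their start. RefSeq's table of starts (GRCm38.p6) held windows for 8 of the 10 genes and none was found for Hes1 and Hey1. The starts are RefSeq's and need not be the ends of the GENCODE gene spans given below. The windows of Rbpj lie inside its span and those of Jag1 and Notch2 partly so. The 250 bases before each start were searched for TGGGAA on both strands. Only the windows of Rbpj held it among the members' 10 windows, and 21.6% of all 32851 windows did. The longer form GTGGGAA, which contains TGGGAA, was in 0 of the members' windows and in 5.42% of all windows. A match of letters is no evidence of binding, and its absence says only that the letters are not in the window. In the lines below, given 5′ to 3′ on the strand of the gene, capitals mark TGGGAA or its reverse complement TTCCCA.
Rbpj, chr5:53590096-53590345, plus strand: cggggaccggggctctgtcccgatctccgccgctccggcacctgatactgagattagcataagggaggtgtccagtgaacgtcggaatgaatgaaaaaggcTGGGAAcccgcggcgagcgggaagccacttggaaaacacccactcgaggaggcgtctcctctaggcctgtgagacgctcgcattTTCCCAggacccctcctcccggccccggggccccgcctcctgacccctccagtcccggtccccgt
Jag1, chr2:137116521-137116770, minus strand: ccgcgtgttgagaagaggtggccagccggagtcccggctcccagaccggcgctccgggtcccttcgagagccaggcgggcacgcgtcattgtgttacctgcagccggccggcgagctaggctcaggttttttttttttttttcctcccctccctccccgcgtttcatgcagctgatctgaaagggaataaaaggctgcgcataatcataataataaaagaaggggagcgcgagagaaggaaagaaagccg
Notch2, chr3:98013288-98013537, plus strand: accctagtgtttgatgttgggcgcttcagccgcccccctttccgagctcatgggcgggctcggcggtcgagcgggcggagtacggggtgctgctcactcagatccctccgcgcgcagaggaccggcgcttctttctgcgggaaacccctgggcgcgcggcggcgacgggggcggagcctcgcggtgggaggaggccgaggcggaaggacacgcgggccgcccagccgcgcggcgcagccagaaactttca

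In the window of Rbpj, the match on the plus strand began 149 bases and that on the minus strand 65 bases before the start. The second start of Rbpj in the table, at an overlapping window, held the latter match only. The windows of Rbpj, Jag1 and Notch2 held 21, 20 and 34 CpG pairs, where the median window held 6. CpG pairs are common before the starts of genes used in many tissues.

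The libraries held 6528643 to 11441278 counts, so that 3 counts, taken as the floor, corresponded to 0.262 to 0.460 CPM (counts scaled to library size). This floor covers counting error only, while the intervals and standard errors given below include the spread between libraries. Levels below are CPM after TMM scaling, and they are compared between cell types for one gene and not between genes, since the libraries sample the 3′ ends of transcripts. In bulk RNA, fewer cells that express a gene and less of its RNA in each cell cannot be told apart. Against marker lists, 9 of 9 tested pluripotency genes were higher and 10 of 10 fibroblast genes were lower in mESCs. Of the pluripotency list, Fut4 did not pass the filter. Smooth muscle and pericyte genes summed to 4857 to 5869 CPM in MEFs and 51.4 to 73.8 CPM in mESCs, with 7 of 8 lower in mESCs. Endothelial genes summed to 18.4 to 26.4 CPM in MEFs and 34.1 to 57.5 CPM in mESCs, with Pecam1, which made up most of the mESC sum, higher in mESCs and the 3 others tested not called. Neural genes summed to 77.3 to 119 CPM in MEFs and 43.3 to 52.5 CPM in mESCs, blood genes to 8.23 to 19.2 and 87.1 to 97.1 CPM, and primitive endoderm genes to 26.3 to 34.99 and 13.3 to 39.6 CPM. The blood sum in mESCs came mostly from Laptm5 (58.4 CPM) and Kit (32.0 CPM), whereas Cd53 was lower in mESCs (log2 fold change -3.74) and Ptprc, a gene of all white blood cells, had 30 counts over the MEF and 1 over the mESC libraries. The primitive endoderm sum came mostly from Gata6 (30.1 CPM in MEFs and 16.8 CPM in mESCs), which was not called. Gata4, Sox7, Sox17 and Foxa2 went the other way, with every mESC library above every MEF library. These genes had few counts and did not pass the filter, with mESC means of 1.60 CPM (Foxa2) to 3.75 CPM (Sox17). Sox17 and Foxa2 had 0 counts in every MEF library and Dcx in every mESC library.

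Genes of keratinocytes, a cell type that neither label names, were present at like levels in both. Krt5, Krt14 and Krt15 lay between 32.8 and 48.2 CPM in every library, and 0 of the 5 keratinocyte genes passed the test (edgeR). At an unadjusted p under 0.05 there was 1, Trp63 (adjusted p = 0.0754, edgeR), whose libraries were apart. Their part in the counts of the Notch pathway genes was not tested.

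**Figure D1:**
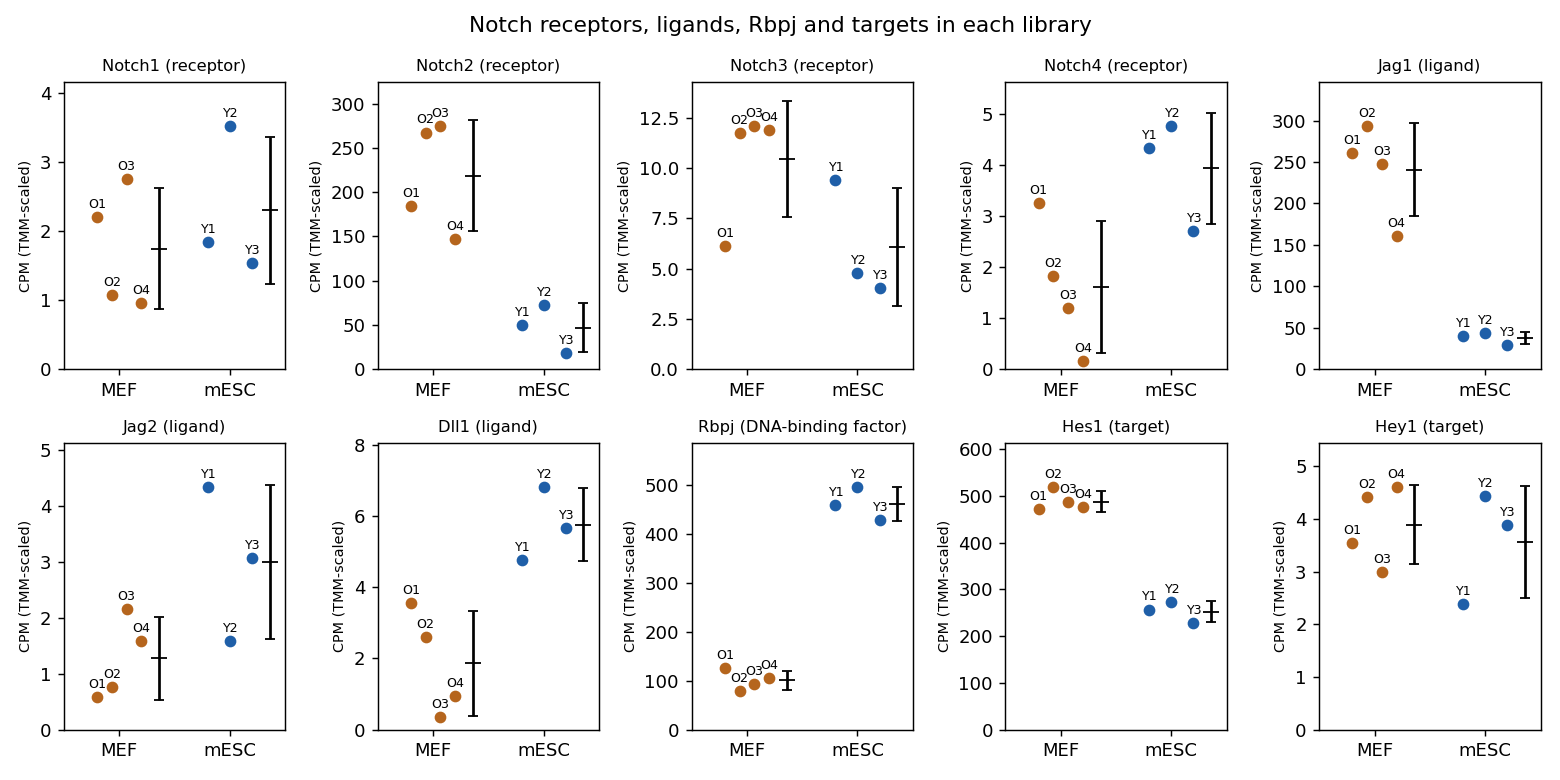
Level of each of the 10 genes in each library, in TMM-scaled CPM on a linear axis that starts at 0, with MEF libraries O1 to O4 in brown and mESC libraries Y1 to Y3 in blue. Black bars give the mean and SD of each cell type. The cell types do not overlap for Notch2, Jag1, Dll1, Rbpj and Hes1, and they overlap for the other 5 genes.

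Notch2, the only receptor that passed the test, was lower in mESCs. Notch2 (chromosome 3 of GRCm38, 98013527 to 98150361) held 184, 268, 275 and 147 CPM in MEF libraries O1 to O4, and 49.4, 72.6 and 17.7 CPM in mESC libraries Y1 to Y3. Every mESC library lay below every MEF library, and Y3 lay far below the other mESC libraries. The means were 219 ± 62.9 CPM in MEFs (SD, n = 4) and 46.6 ± 27.6 CPM in mESCs (SD, n = 3). edgeR put the log2 fold change at -2.23 (SE 0.418, adjusted p = 0.00125, edgeR). The difference of the mean log2CPM had p = 0.0286 (exact permutation test, two-sided), the smallest that 35 arrangements of 4 and 3 libraries allow. Within the exons of Notch2, 5.02% of bases are also exonic in Gm42820 on the same strand, which held at most 19 counts in a library.

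Notch1, the receptor best known from blood and somite development, did not differ detectably. It held 2.21, 1.07, 2.76 and 0.954 CPM in MEFs and 1.84, 3.52 and 1.53 CPM in mESCs, from 6 to 31 counts per library. The libraries of both cell types overlapped, with a log2 fold change of 0.37 and a 95% interval from -0.88 to 1.63. The direction rested on Y2, without which the log2 fold change was -0.07. Notch1 (chromosome 2, 26457903 to 26516663) is a gene whose count is uncertain, because 59.6% of the last 1000 exonic bases of its coding transcripts overlap exons on the opposite strand, where poly(A)-primed reads fall. The overlapping genes, 0610009E02Rik and Gm13568, held at most 6 and 31 counts in a library. The strand setting of the counting is not given in the sources used here.

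Notch3, a receptor known from the smooth muscle and pericytes of vessels, held 6.14, 11.7, 12.1 and 11.9 CPM in MEFs and 9.43, 4.77 and 4.01 CPM in mESCs. MEF library O1 lay among the mESC libraries and mESC library Y1 lay above O1. As a log2 fold change this was -0.78 with a standard error of 0.393 (adjusted p = 0.129, edgeR). Without Y1 it was -1.25, and Notch3 was then called lower in mESCs (adjusted p = 0.0340, edgeR). The smooth muscle and pericyte genes given above were also lower in mESCs, and their part in the value of Notch3 was not tested.

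Notch4, a receptor known from endothelium, held 3.26, 1.83, 1.198 and 0.159 CPM in MEFs and 4.34, 4.77 and 2.71 CPM in mESCs. The lowest MEF value, in O4, was a single count and lies under the floor. The highest MEF library, O1, lay above the lowest mESC library, Y3. In log2 terms the change was 1.24 with a 95% interval from -0.24 to 2.73 (adjusted p = 0.153, edgeR). Without O1 it was 1.86 (adjusted p = 0.050024, just above the threshold, edgeR), and without O4 it was 0.88. Of the endothelial genes, Pecam1 was at 29.9 CPM in mESCs and 2.79 CPM in MEFs, while the receptor genes Kdr (0.655 and 2.14 CPM) and Tek (4.18 and 5.51 CPM) and Emcn (8.60 and 11.2 CPM) were not called. Cdh5, the cadherin of endothelium, had 40 counts over the 4 MEF libraries and 4 counts over the 3 mESC libraries. Cldn5 (1 and 31 counts) and Tie1 (9 and 19 counts) went the other way, and Sox18 had 13 counts in each cell type. These genes did not pass the filter.

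Among the ligands, Jag1 was lower in mESCs by the largest factor of the 10 genes. Jag1 (chromosome 2, 137081456 to 137116644) held 261, 294, 248 and 161 CPM in MEFs and 40.1, 43.5 and 29.3 CPM in mESCs. The lowest MEF library, O4, was well above the highest mESC library, Y2. The means were 241 ± 56.6 CPM (SD, n = 4) and 37.6 ± 7.44 CPM (SD, n = 3). edgeR put the log2 fold change at -2.68 (SE 0.239, adjusted p = 7.14e-06, edgeR), and the exact permutation test gave p = 0.0286. The exons of Jag1 overlap no other annotated exon and share no 50-base sequence with another gene. Within mESCs, Jag1 and Notch2 had the same order of libraries, highest in Y2 and lowest in Y3. The sum of the fibroblast genes had this order too. In MEFs both genes were lowest in O4, but Jag1 was highest in O2 and Notch2 in O3.

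The mESC libraries held 15.6% of the MEF level of Jag1 and 21.3% of that of Notch2. Over the 10 fibroblast genes this share ran from 0.452% (Col1a2) to 41.0% (Fn1, fibronectin), with Lum, a proteoglycan gene, at 16.6%. Only Fn1 lay above Notch2, and only Fn1 and Lum above Jag1. The next below, Twist1, was at 8.05%, so that Jag1 and Notch2 lay above most of these genes.

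Dll1, a Delta-like ligand that acts in somite formation, held 3.55, 2.59, 0.360 and 0.954 CPM in MEFs and 4.77, 6.82 and 5.66 CPM in mESCs. Every mESC library lay above every MEF library, with O3 at the floor of 3 counts. As a log2 fold change this was 1.60 with a 95% interval from 0.23 to 2.97, and the adjusted p missed the threshold (adjusted p = 0.0541, edgeR). Without O1, the MEF library with the most counts of Dll1, it was called higher in mESCs at 2.15 on the log2 scale (adjusted p = 0.0203, edgeR). DESeq2, scaling by library size alone and both other filters on low counts also called it. Of the exonic bases of Dll1 (chromosome 17, 15367354 to 15376872), 20.6% overlap the opposite-strand gene A930024N18Rik, so its count is uncertain in the same way as that of Notch1.

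Jag2 held 0.576, 0.762, 2.16 and 1.59 CPM in MEFs and 4.34, 1.59 and 3.07 CPM in mESCs, from 5 to 40 counts. It is the second mammalian Jagged ligand. The cell types overlapped, as Y2 lay below O3 and about level with O4, and the log2 fold change of 1.24 had a 95% interval from -0.09 to 2.57 (adjusted p = 0.116, edgeR). In MEFs, Dll1 and Notch4 were higher in O1 and O2 than in O3 and O4, and Jag2 was lower in O1 and O2. The same pairs of MEF libraries were the most alike across all genes with at least 10 counts, with chi-square values of 15.8 (O1 and O2) and 20.1 (O3 and O4) per degree of freedom, against 26.2 to 31.1 for the other pairs. The part of this likeness in the spread of these genes was not tested.

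Rbpj, the DNA-binding factor of the pathway, was the only member called higher in mESCs. It held 125, 79.6, 93.2 and 105 CPM in MEFs and 457, 495 and 428 CPM in mESCs. All mESC libraries were far above all MEF libraries, and the mESC libraries lay close together. The means were 101 ± 19.2 CPM in MEFs (SD, n = 4) and 460 ± 34.0 CPM in mESCs (SD, n = 3). In log2 terms the change was 2.19 with a standard error of 0.166 (adjusted p = 2.20e-06, edgeR), and the exact permutation test gave p = 0.0286. In MEFs the level was 21.9% of that in mESCs, where the 9 tested pluripotency genes ran from 0.398% (Dppa4) to 4.45% (Epcam).

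Part of the sequence of Rbpj (chromosome 5, 53466152 to 53657362) is shared with retrotransposed copies, with 10.6% of its 50-base sequences found in other annotated genes, mainly Rbpj-ps3. Reads from these parts map to more than one place and would be lost from the count. Rbpj-ps3 itself held 13.7, 5.64, 8.15 and 9.86 CPM in MEFs and 45.6, 51.9 and 83.9 CPM in mESCs, 2.68 as log2 fold change (adjusted p = 4.92e-05, edgeR). How many of these counts belong to Rbpj transcripts was not tested.

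Hes1, the repressor that many cells induce on Notch signalling, was lower in mESCs by a smaller factor. Hes1 (chromosome 16, 30064384 to 30067796) held 471, 519, 486 and 475 CPM in MEFs and 257, 272 and 229 CPM in mESCs. The libraries within each cell type lay close together and the cell types did not overlap. The means were 488 ± 21.9 CPM (SD, n = 4) and 253 ± 22.2 CPM (SD, n = 3). edgeR put the log2 fold change at -0.95 (SE 0.122), the smallest standard error among the members (adjusted p = 9.90e-05, edgeR). This standard error does not cover the choice of scaling, as the log2 fold change was -0.67 with library size alone (adjusted p = 0.000914, edgeR). Within the mESCs, Hes1, Jag1, Notch2 and Rbpj were each highest in Y2 and lowest in Y3. The sum of the fibroblast genes had the same order, with 405 CPM in Y2 and 339 CPM in Y3. In MEFs these genes had no shared order, as Hes1 was highest in O2 and lowest in O1, and Rbpj the reverse.

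Hey1, the second target, did not differ detectably between the cell types. It held 3.55, 4.42, 3.00 and 4.61 CPM in MEFs and 2.38, 4.43 and 3.89 CPM in mESCs, from 22 to 39 counts. Both ranges overlapped nearly throughout. As a log2 fold change this was -0.12 with a 95% interval from -1.01 to 0.77 (adjusted p = 0.830, edgeR), which turned to 0.15 with scaling by library size alone. This interval includes the change of Hes1.

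**Figure D2:**
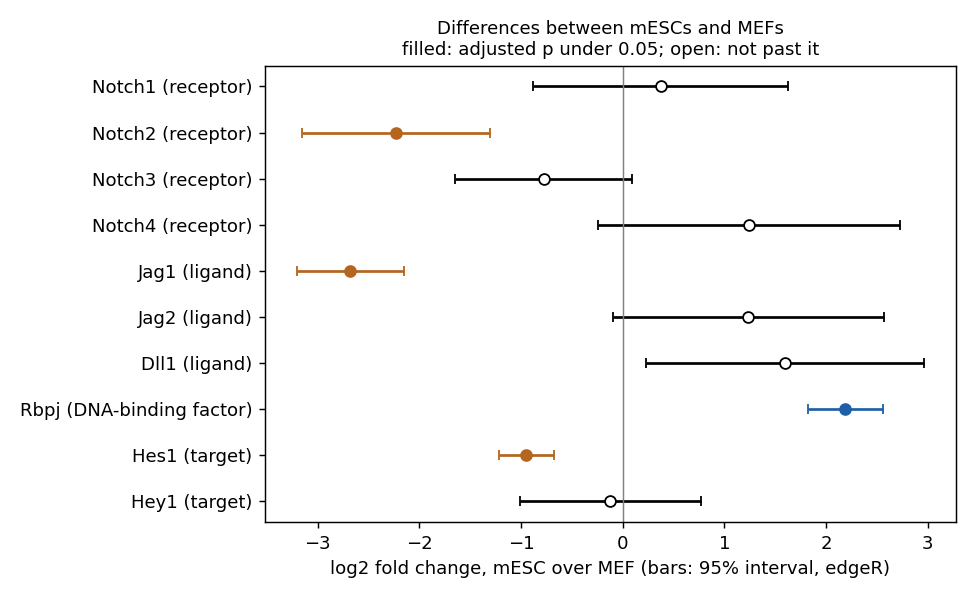
Log2 fold change of each gene in mESCs over MEFs on the x axis, with 95% intervals from edgeR as bars. Filled points passed an adjusted p of 0.05: Notch2 (-2.23), Jag1 (-2.68) and Hes1 (-0.95) lie below 0 in brown and Rbpj (2.19) above 0 in blue. The 6 open points have intervals that reach 0 or, for Dll1, an adjusted p just above 0.05.

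By the exact permutation test on log2CPM, Notch2, Jag1, Rbpj and Hes1 reached the smallest possible p. MEF and mESC libraries were fully apart for 5 of the 10 members, these 4 and Dll1, where this held for 52.1% of all genes tested. For Dll1 the exact permutation test gave p = 0.0571.

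Whether members of one role changed by different factors was asked within each library, where the difference in log2CPM of a pair of genes does not depend on how libraries are scaled. For 10 pairs, 0 passed an adjusted p of 0.05 over the pairs and 5 had the smallest p possible, 0.0286, which became 0.0571 after adjustment (exact permutation test, two-sided, Benjamini-Hochberg adjustment). In these 5 pairs MEF and mESC libraries were fully apart. The difference of Jag1 and Dll1 changed by -4.49 on the log2 scale, from 7.14 ± 1.11 (SD, n = 4) to 2.65 ± 0.345 (SD, n = 3). That of Jag1 and Jag2 changed by -3.79, from 7.42 ± 0.977 to 3.62 ± 0.826. Relative to both other ligands, Jag1 was lower in all mESC libraries.

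Among receptors, the difference of Notch2 and Notch4 changed by -3.91 in mESCs and that of Notch1 and Notch2 by 2.78. Notch2 and Notch3 overlapped, with a change of -1.59 (p = 0.0857, exact permutation test, two-sided). The difference of Hes1 and Hey1 went from 6.90 ± 0.260 to 6.09 ± 0.455, a change of -0.81, and its highest mESC value of 6.61 lay just under its lowest MEF value, which rounds to the same number. With a prior count of 0.5 in place of 2, this pair was no longer at the smallest p (adjusted p = 0.114 over the pairs, exact permutation test). The 5 pairs with overlapping libraries were Notch1 and Notch3, Notch1 and Notch4, Notch2 and Notch3, Notch3 and Notch4, and Jag2 and Dll1.

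**Figure D3:**
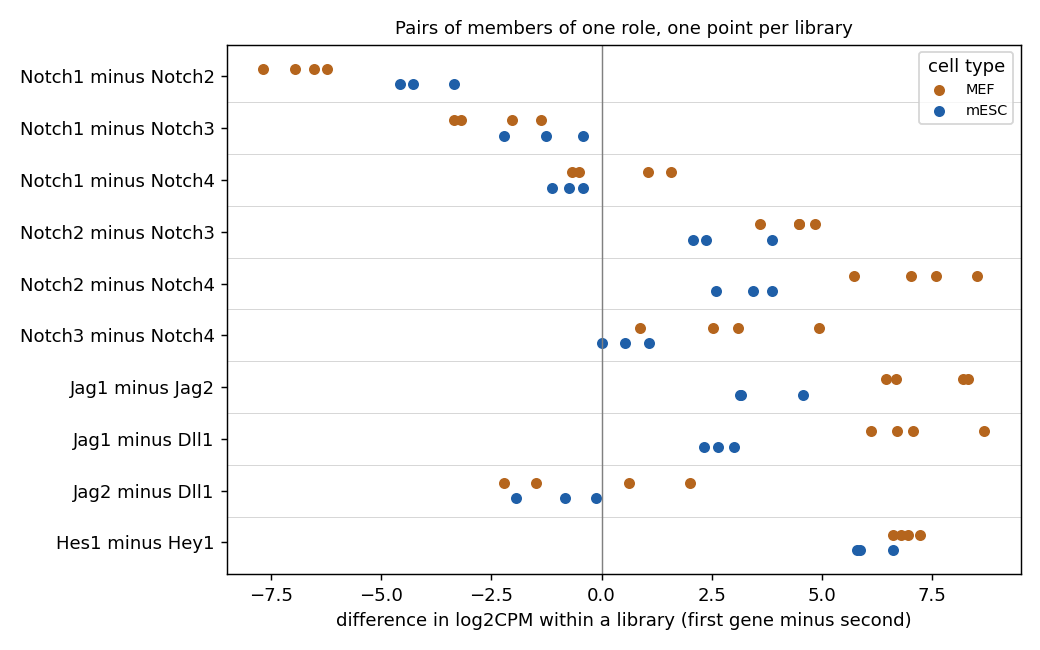
Difference in log2CPM between the 2 genes of each pair on the x axis, first gene minus second, with 1 point per library (MEF brown, mESC blue). The cell types are apart for Notch1 minus Notch2, Notch2 minus Notch4, Jag1 minus Jag2, Jag1 minus Dll1 and, narrowly, Hes1 minus Hey1.

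The other genes of the pathway were taken from a list of 64, of which 56 were tested. Of these, 17 were higher and 23 lower in mESCs, or 71.4% called, beside 47.9% of all genes tested. The median log2 fold change was -0.44. When tested against a fold change of 2, 14 of the 56 were called, and 3991 of all 16580 genes tested. The list was chosen with earlier results of these data known. Of the enzymes that cut the receptor, 7 of 10 were lower in mESCs and 0 were higher. Of all genes tested, 25.0% were lower and 22.8% higher. Adam10, the protease that makes the ligand-induced cut, fell from 652 ± 130 CPM (SD, n = 4) to 94.7 ± 44.8 CPM (SD, n = 3), a log2 fold change of -2.78. Furin, which processes the receptor before it reaches the surface, had a log2 fold change of -2.67. In the gamma-secretase complex, which releases the intracellular part, Ncstn, Aph1a and Aph1b were lower, while Psen2, Psenen and Aph1c did not pass the test. Aph1b and Aph1c are close paralogs, and how far their reads can be told apart was not tested.

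Of the glycosyltransferases that modify the receptor, Poglut1 was higher with a log2 fold change of 0.87, and Pofut1 (-1.21) and Eogt (-1.15) were lower. Eogt passed narrowly (adjusted p = 0.0472, edgeR), and its libraries overlapped. The Fringe genes Lfng and Rfng did not pass the test. Mfng was not tested, with 8 counts over the MEF and 83 over the mESC libraries. Of the regulators of endocytosis and ubiquitin, 3 were higher and 3 lower of 13 tested. That is 46.2% called, near the 47.9% of all genes tested. Dtx1, a ubiquitin ligase, had the largest positive value of the list, with 0.525 ± 0.613 CPM in MEFs (SD, n = 4) and 20.1 ± 1.87 CPM in mESCs (SD, n = 3), a log2 fold change of 5.19. Its MEF level rests on 17 counts over 4 libraries. Dtx2 rose with a log2 fold change of 1.34, and Dtx4 (-1.59) and Numbl (-1.56) were lower. Mib1, the ligase that lets the sending cell internalize its ligand, had a log2 fold change of -1.45.

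Of the coactivators, 4 were higher and 3 lower of 8, beside 22.8% higher and 25.0% lower of all genes tested. Maml2 (-2.18) and Maml1 (-1.77), which bridge the Notch and Rbpj complex to acetyltransferases, were lower, while Maml3 did not pass the test. Ep300 (1.25) and Kat2b (1.14), both acetyltransferases, were higher, and Crebbp (-0.95), the paralog of Ep300, was lower. Of the corepressors, 7 were higher and 4 lower of 14. Tle4, a Groucho-type corepressor, rose from 21.1 ± 5.69 CPM (SD, n = 4) to 185 ± 35.3 CPM (SD, n = 3), a log2 fold change of 3.13. Ctbp2 (1.70) was higher, and its paralog Ctbp1 (-1.62) was lower. Spen, which binds Rbpj as a corepressor, had a log2 fold change of 1.40.

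Among other ligands, the Delta-like genes Dll3 and Dlk1 moved apart. Dll3, which acts within the cell as an inhibitor, rose from 0.830 ± 0.865 CPM (SD, n = 4) to 10.6 ± 2.58 CPM (SD, n = 3), a log2 fold change of 3.65. Dlk1, an imprinted ligand-like gene, fell from 698 ± 279 CPM to 5.08 ± 2.01 CPM, a log2 fold change of -7.10. Dll4 and Dlk2 were not tested, with at most 5 and 7 counts in a library.

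Of the 8 other Hes and Hey factors, 4 were tested and passed, beside 47.9% of all genes tested. Hes6, which antagonizes Hes1 and promotes neuronal differentiation, was higher with a log2 fold change of 1.67. Heyl (-3.34) and Hey2 (-1.90), relatives of Hey1, and Hes7 (-1.89), a gene of the segmentation clock, were lower, with 14 to 19 counts over the mESC libraries. The libraries of Hey2 overlapped. Hes3, Helt and Nrarp were at or under 3 counts in every library, and Hes2 and Hes5 had at most 9 and 4. Nrarp is a textbook Notch target, but 100% of the last 1000 exonic bases of its transcript overlap exons on the opposite strand, so that its low count is uncertain. Snw1, counted above among the coactivators that were higher, is uncertain too, as 97.1% of these bases overlap. It held 79.9 CPM in MEFs and 116 CPM in mESCs.

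The 3 genes most like Hes1 in their log2CPM over the 7 libraries were Ergic1, Ptp4a2 and Sec31a, with Pearson r of 0.9992, 0.9992 and 0.9986. Each was lower in mESCs, with log2 fold changes of -1.10, -1.43 and -1.99. The points are 2 clusters, 1 per cell type, and 1582 of the genes tested had r above 0.95 with Hes1.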

How the data were processed

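RNA-seq counts of 4 MEF and 3 mESC libraries were used. The authors demultiplexed and trimmed 3′-biased reads, aligned them to mm10 with STAR (2.4.2a in the submitters' processing notes, another release in the paper), removed duplicates by molecular identifier (Je), and used featureCounts on exons, keeping reads that mapped once. The authors deposited whole-number counts per gene without normalization. The annotation release is not given in the sources used here. Column names show the cell type but not which labelled sample they are.

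Differences were tested with edgeR 4.0.16 (R 4.3.3; filterByExpr, TMM, glmQLFit, glmQLFTest) over all 16580 genes that passed the filter, with Benjamini-Hochberg adjustment. Standard errors are the fold change divided by the square root of F, and 95% intervals use the test's degrees of freedom. log2CPM used a prior count of 2. Overlaps, shared 50-base sequences and positions are from GENCODE M21 (GRCm38). Within a cell type, every pair of libraries differed beyond counting noise (chi-square per degree of freedom 15.6 to 31.1). The code was tested on simulated data. Alternatives were DESeq2 1.42.0, other scalings, filters and thresholds, and leaving out each library. The members and lists were chosen with earlier results of these data known. Named pathway genes are up to 2 called genes with the largest change in each direction per group; others named, such as Mib1, Spen, Crebbp and the gamma-secretase genes, were chosen after their values were seen. Some genes of the lists are not reported here by name.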

Additional observations from a re-analysis of the deposited data

Results flagged for a closer look

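In MEFs, Notch3 in library O1 stood apart from the other MEF libraries, with 2.67 log2CPM against 3.58 to 3.63 in O2 to O4. Of the 10 genes tested in this way among 4 libraries, 1 stood apart, where chance sets about 1 group in 20 apart, or 0.5 over the 10. Without O1, the log2 fold change of Notch3 was -0.98 and still did not pass the test (adjusted p = 0.0600, edgeR).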

How the results depend on the processing

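No paired analysis was possible because the count columns do not carry the replicate numbers of the sample labels. The calls of Notch2, Jag1, Rbpj and Hes1 and their directions held under 12 alternatives to the fit, and not under the test against a fold change of 2, which did not call Hes1 (adjusted p = 0.812, edgeR). The number of members higher in mESCs was 1, and 2 with DESeq2, with library size alone, with no filter beyond 1 count and with a filter of at least 10 counts in all libraries of a group, the second being Dll1. It was 1 to 2 over the fits that left out one library. Testing against a fold change of 2, a stricter test by construction, left 3991 genes (1714 higher and 2277 lower in mESCs), 14 other pathway genes (6 higher and 8 lower) and 3 members. With 1 library left out, Hey1 ranged from -0.31 to 0.10, Notch1 from -0.067 to 0.66 and the change of Jag2 minus Dll1 from -1.34 to 0.061, and Hey1 was 0.15 with library size alone. None of these was called. Leaving out a library leaves too few arrangements for the exact test of the pairs to pass 0.05, so it was not run there. The number of members whose cell types did not overlap was 5, and 6 with library size alone, an alternative chosen after seeing the data. The 6 members with few counts had standard errors of 0.393 to 0.670, and Notch2, with many counts, one of 0.418. How much of these comes from depth was not tested.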
